A study of Homo sapiens with 12 samples.

Results

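Antisense long non-coding RNAs, the transcripts named after a gene they face on the other DNA strand, were followed through a map of N6-methyladenosine (m6A) in METTL16 knockout leukaemia cells. They were taken as every name in the authors' deposited tables that ends in -AS and a digit, leaving out names that begin with LINC or ZBTB, a rule that uses no measured value. It gave 553 names of 16417 in the 4 tables, of which 517 end in -AS1, 31 in -AS2 and 5 in -AS3. The cells were NOMO-1, a human monocytic acute myeloid leukaemia line, carrying knockout guide sgMETTL16-1, knockout guide sgMETTL16-2 or the control guide sgNS. All 3 guides were delivered by lentivirus and all cells were kept under puromycin, so the sgNS controls share the infection and the selection. The labels do not say whether the knockout cells were cloned. Polyadenylated RNA was sequenced as input and as the fraction pulled down by an m6A antibody (immunoprecipitate, IP), in 2 input and 2 IP libraries per guide, 12 libraries in all. Whether the replicates were grown as separate cultures is not in the labels.

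m6A is the most common internal modification of messenger RNA. Most of it is written by the METTL3 and METTL14 complex, while METTL16 is a separate methyltransferase known for the U6 small nuclear RNA and for hairpins of the MAT2A messenger RNA. Antisense RNAs are transcribed from the strand opposite a coding gene, either across that gene or away from a shared promoter, and several are known to act on the expression of the gene they face. Polyadenylated ones pass through the same purification as messenger RNA, so they are open to the same assay.

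From the authors come 4 deposited tables of comparisons, 1 per knockout guide and replicate number, with sgNS as the control. A row is a window of a transcript, in GRCh38, with the enrichment of the IP over its input, as a fold, and the log2 fold change between knockout and sgNS. A window was taken as enriched where the authors' FDR of IP over input was under 0.05, and as called where their FDR of the difference was under 0.05. A negative log2 fold change was taken to mean lower m6A in knockout cells, as software with these column names usually has it. That direction is not given by the files, and under the opposite one all directions below would turn. No value per library was used, so the depth of each library is unknown and an error between replicates cannot be attached to single values. Which sgNS libraries stand behind each table is not stated, so the tables may share controls, and their values are set side by side below without a test between them. METTL16 itself had 5 to 7 windows and 0 calls in each of the authors' deposited tables, with a lowest FDR of 0.133. Those windows compare IP with input and so do not check the knockout. All 10 myeloid marker genes looked for, such as CD33, CD14 and LYZ, had windows in each of the authors' deposited tables.

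Antisense RNAs were widely listed but seldom enriched. The authors' deposited tables hold 1459 of 79372 windows on 465 antisense RNAs for sgMETTL16-1 replicate 1 and 1317 of 71406 windows on 445 for sgMETTL16-1 replicate 2. They hold 1381 of 75788 windows on 473 antisense RNAs for sgMETTL16-2 replicate 1 and 1374 of 70002 windows on 468 for sgMETTL16-2 replicate 2. Of the 553, 366 were listed in all 4 tables, 69 in 3, 62 in 2 and 56 in 1. The median antisense RNA had 2 windows in a table and the most had 16.

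In the sgMETTL16-1 tables the authors deposited, 40 antisense windows were enriched in replicate 1, which is 2.74% of antisense windows against 8.1% of all windows, and 54 in replicate 2, which is 4.1% against 11.9%. In the sgMETTL16-2 tables the authors deposited, 52 antisense windows were enriched in replicate 1, which is 3.77% against 10.2%, and 61 in replicate 2, which is 4.44% against 12.3%. The antisense share was below the share of all windows in each table. It is a share of windows that differ in read support, and the tables give no reads per window with which to hold that equal. Other columns of the authors' deposited tables also set antisense windows apart: the log2 fold change was exactly 0 in 14.8%, 13.5%, 14.7% and 13% of antisense windows in the order of the tables above, against 8%, 8.77%, 8.38% and 8.5% of all windows. Windows of 2 or more blocks, which span a splice junction, made up 18.7% to 20% of antisense windows in the authors' deposited tables, against 27.7% to 29.8% of all windows. The part that these properties play in the enriched share was not tested.

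**Figure D1:**
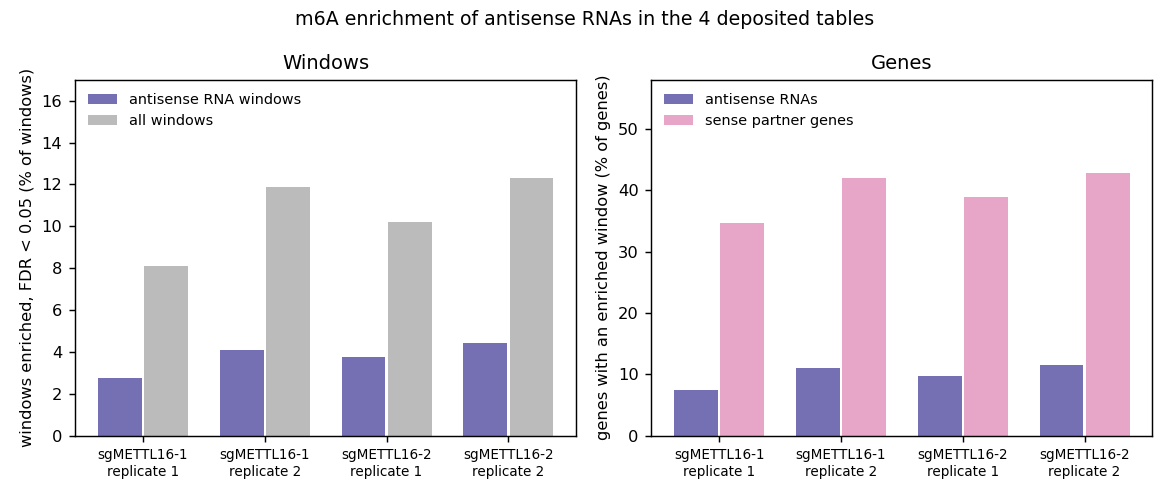
Left, the percentage of windows enriched in the m6A IP in each deposited table, for antisense RNA windows (2.74% to 4.44%) and for all windows (8.1% to 12.3%). Right, the percentage of genes with an enriched window, for antisense RNAs (7.53% to 11.5%) and for the coding or other gene in their name (34.6% to 42.8%). The antisense bar is the lower of each pair. On the right a gene counts if any of its windows is enriched, and the named genes have more windows each than the antisense RNAs.

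Where antisense windows were enriched, their median fold enrichment was above that of all enriched windows. In the authors' deposited tables the median over enriched antisense windows was 2.29, 2.48, 2.25 and 2.31, against 1.78, 1.92, 1.88 and 1.89 over all enriched windows. Over every antisense window, enriched or not, the authors' deposited tables gave medians of 2.23, 2.54, 2.28 and 2.48, against 1.67, 1.74, 1.77 and 1.7 for all windows. The medians of enriched antisense windows and of all antisense windows were thus close to each other, and the fold alone did not separate the windows that passed the IP test.

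The enriched windows came from 85 antisense RNAs. Of these, 33 were enriched in 1 table, 20 in 2, 17 in 3 and 15 in all 4, and 468 of the 553 were enriched in none. The 15 enriched in each of the authors' deposited tables were FGD5-AS1, MIF-AS1, NCBP2-AS2, OIP5-AS1, PCNA-AS1, PRKAG2-AS1, PSMB8-AS1, RUSC1-AS1, SEMA3F-AS1, SH3BP5-AS1, SH3RF3-AS1, SNRK-AS1, ST20-AS1, ST3GAL4-AS1 and TMPO-AS1. Of these 15, 11 had an enriched window that shared bases with a window of a gene on the opposite strand, and 4 had none. For each of the 15, the window with the lowest FDR of IP over input was read in each table. PRKAG2-AS1, which faces the gene of a regulatory subunit of the AMP-activated kinase, had fold enrichments of 2.45 and 3.38 in the authors' deposited sgMETTL16-1 tables and of 2.43 and 4.96 in the sgMETTL16-2 tables. ST3GAL4-AS1, now called GSEC in RefSeq, had 2 and 5.07 in the sgMETTL16-1 tables the authors deposited and 1.82 and 1.98 in the sgMETTL16-2 tables. In the windows read, these RNAs varied between tables by more than a factor of 2. SNRK-AS1, opposite the gene of a kinase related to the AMP-activated kinase, kept to a range of 2.29 to 2.58 in the authors' deposited tables. The SNRK windows on the other strand had the same values, as set out below. Another SNRK-AS1 window (43347248 to 43347578), enriched in 3 tables, varied more, at 2.18 and 4.23 for sgMETTL16-1 and 1.71 and 1.53 for sgMETTL16-2. MIF-AS1 and RUSC1-AS1 were the least enriched of the 15, at 1.18 to 1.51 and at 1.28 to 1.42 in the authors' deposited tables.

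**Figure D2:**
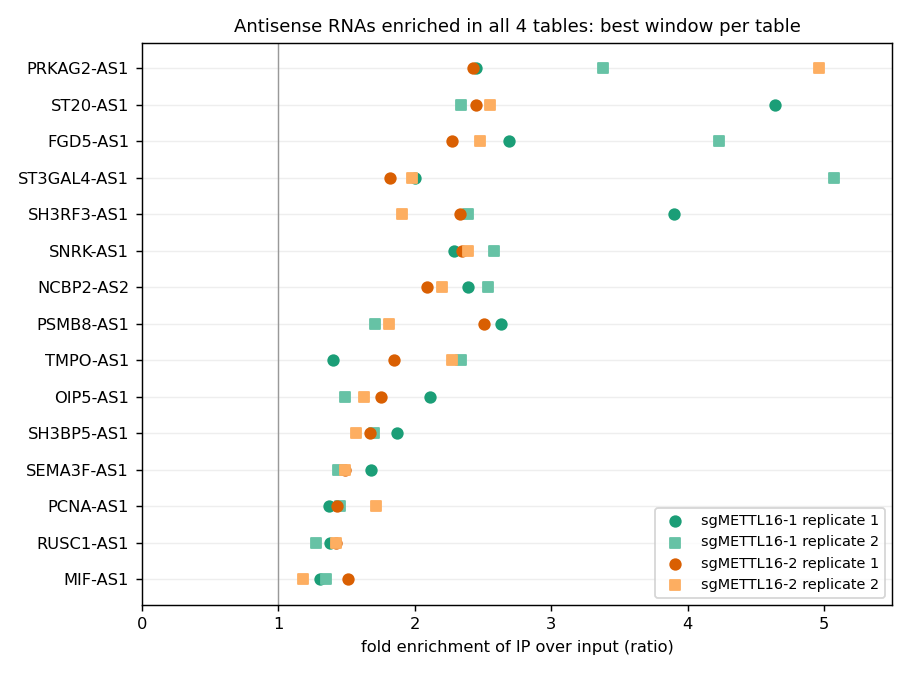
Fold enrichment of IP over input (ratio) for the 15 antisense RNAs enriched in all 4 deposited tables, with 1 point for the best window of each table and a line at a ratio of 1. The best window is the one with the lowest FDR of IP over input. In these windows SNRK-AS1 sits between 2.29 and 2.58, while ST3GAL4-AS1 reaches 5.07 in 1 table and stays at 2 or below in the others. Of the 15, 11 have an enriched window that shares bases with a window on the opposite strand.

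Not every name is still that of an antisense RNA. In RefSeq (GRCh38.p14) 550 of the 553 names had a single match, 446 under the same symbol and 104 under an older one. The current symbol still carries -AS for 468, while 65 are now named -DT, for divergent transcript, and 17 carry other names. By biotype RefSeq lists 535 as long non-coding RNA, 6 as transcribed pseudogenes, 6 as protein coding and 3 as antisense RNA. NCBP2-AS2, beside the gene of a subunit of the nuclear cap-binding complex, is among the protein-coding ones as NCBP2AS2. PSMD5-AS1 is now CUTALP, a pseudogene. Of 365 antisense RNAs that could be placed beside the gene in their name, 264 overlapped it on the opposite strand, 96 ran away from it without overlap and 5 pointed towards it without overlap. By the authors' deposited tables, 44 of the 264 overlapping ones, 10 of the 96 divergent ones and 2 of the 5 convergent ones were enriched in at least 1 table.

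Enriched antisense windows often lay near a transcript's start. In the authors' deposited tables, 22.5%, 25.9%, 28.8% and 23% of the enriched antisense windows had their midpoint within 1000 bases of the gene's 5′ end, against 5.22%, 6.98%, 6.91% and 7.54% of all enriched windows. Antisense windows that were not enriched lay there about as often, at 21.9% to 24.3% in the authors' deposited tables. Near the 3′ end, the part of a messenger RNA known to hold much of its m6A, were 25.9% to 32.7% of the enriched antisense windows in the authors' deposited tables, against 21.5% to 23.7% of all enriched windows. Antisense windows that were not enriched lay there more often than the enriched ones in each of the authors' deposited tables, at 34.5% to 37.9%. An antisense gene shorter than 2 kilobases can count at both ends.

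The enriched windows of 14 antisense RNAs reached into the 300 bases around a start site that RefSeq lists, 250 before it and 50 after it. Those below belong to RNAs with calls described next: the called windows of AGAP2-AS1 and TMPO-AS1 reach these bases, while that of CEBPB-AS1 ends just short of them and the bases marked for it lie in a window that was not called. They are RefSeq sequences of GRCh38.p14 on the strand of the antisense RNA, and capitals mark the bases inside an enriched window of the authors' deposited tables. AGAP2-AS1 is chr12:57725990-57726289 on the plus strand, TMPO-AS1 is chr12:98516177-98516476 on the minus strand (capitals for both from sgMETTL16-2 replicate 1), and CEBPB-AS1 is chr20:50192020-50192319 on the minus strand (capitals from sgMETTL16-1 replicate 2).
AGAP2-AS1: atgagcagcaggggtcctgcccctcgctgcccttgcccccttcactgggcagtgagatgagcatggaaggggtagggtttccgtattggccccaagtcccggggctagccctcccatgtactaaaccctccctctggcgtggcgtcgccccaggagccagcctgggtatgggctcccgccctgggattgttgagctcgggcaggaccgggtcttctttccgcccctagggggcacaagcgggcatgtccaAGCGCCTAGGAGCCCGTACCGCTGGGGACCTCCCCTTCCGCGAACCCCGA
TMPO-AS1: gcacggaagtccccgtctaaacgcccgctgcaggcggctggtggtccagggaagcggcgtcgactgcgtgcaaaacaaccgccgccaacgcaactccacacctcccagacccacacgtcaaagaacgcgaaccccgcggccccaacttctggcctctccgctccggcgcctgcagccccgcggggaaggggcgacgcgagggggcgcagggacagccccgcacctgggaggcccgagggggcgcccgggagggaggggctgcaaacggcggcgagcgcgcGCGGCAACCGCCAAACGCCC
CEBPB-AS1: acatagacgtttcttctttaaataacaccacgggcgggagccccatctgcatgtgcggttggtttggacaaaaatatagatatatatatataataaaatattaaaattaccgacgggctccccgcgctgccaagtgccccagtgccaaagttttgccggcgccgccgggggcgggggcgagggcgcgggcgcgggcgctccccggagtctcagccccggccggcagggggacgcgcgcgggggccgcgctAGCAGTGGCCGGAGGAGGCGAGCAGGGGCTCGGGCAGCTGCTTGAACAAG

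The motif GGAC, the core of many m6A sites, was searched in the 50 transcribed bases after the start site on the transcribed strand, where it cannot overlap itself. It was present in 18.9% of the 35116 promoters of the RefSeq table, or 33.5% when its reverse complement GTCC was counted as well, and in 93 of 477 promoters of antisense RNAs, or 19.5%. AGAP2-AS1 had 1 GGAC in its 50 bases, and TMPO-AS1 and CEBPB-AS1 had 0. A match is a description of these letters and not a methylated site.

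With the knockout, calls on antisense RNAs were few and lay in 1 table. The authors' deposited tables called 0 antisense windows for sgMETTL16-1 in replicate 1, where 0.355% of all windows were called, and 0 in replicate 2, where 0.749% were. For sgMETTL16-2 the authors' deposited tables called 7 antisense windows in replicate 1, which is 0.507% against 1.84% of all windows, and 0 in replicate 2, where 0.734% of all windows were called. The 7 were 3 lower windows (0.217% of antisense windows, against 0.965% of all windows) and 4 higher ones (0.29%, against 0.875%). The share of antisense windows called was below the share of all windows in each table. By the unadjusted p of the authors' deposited tables, under 0.05, there were 28 and 33 antisense windows for sgMETTL16-1 (1.92% and 2.51%, against 4.85% and 5.81% of all windows). There were 39 and 29 for sgMETTL16-2 (2.82% and 2.11%, against 8.2% and 6.15%). In the 3 tables with 0 calls, the lowest FDR of an antisense window in the authors' deposited tables was 0.179 and 0.158 for sgMETTL16-1 and 0.101 for replicate 2 of sgMETTL16-2.

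With calls in 1 table alone, no antisense call could be shared by both tables of a guide. Between a guide's tables, 330 antisense windows were matched for sgMETTL16-1 and 368 for sgMETTL16-2 (at least 0.5 of the bases of each). Of 20031 matched windows of any gene for sgMETTL16-1, 9 had a repeated lower call and 4 a repeated higher one. For sgMETTL16-2 these were 13 and 112 of 21192. Repeated calls were thus rare throughout, and so few antisense windows cannot show whether they are rarer on antisense RNAs. Antisense windows had a median log2 fold change of 0.00 in every one of the authors' deposited tables, as did all windows. Over enriched antisense windows it was -0.06 and 0.11 for sgMETTL16-1 and 0.02 and 0.13 for sgMETTL16-2 in the authors' deposited tables, against -0.04, 0.13, 0.12 and 0.14 over all enriched windows.

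**Figure D3:**
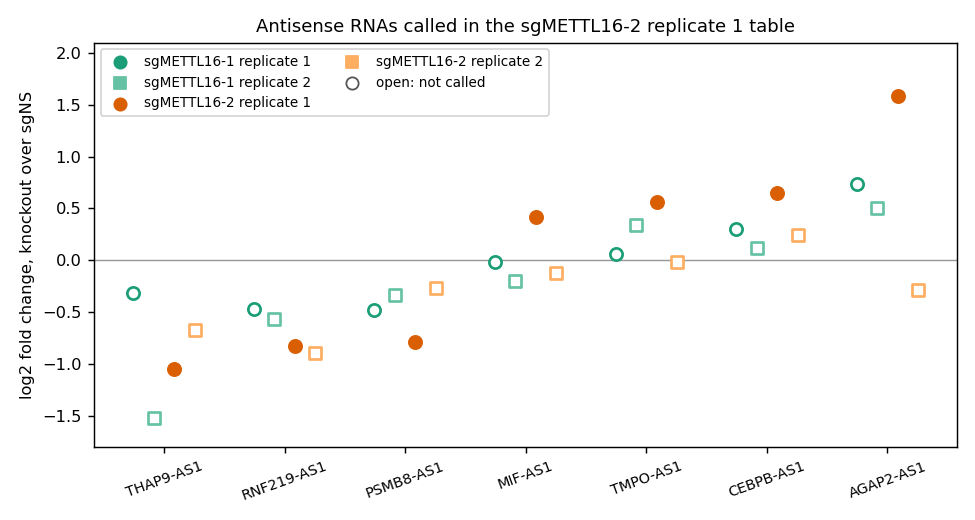
The log2 fold change (knockout over sgNS) of the 7 antisense RNAs called in the sgMETTL16-2 replicate 1 table, with 1 point per deposited table for the window that overlaps the called one most. Filled points are called (FDR under 0.05) and open points are not. THAP9-AS1, RNF219-AS1 and PSMB8-AS1 are below 0 in every table, CEBPB-AS1 is above 0 in every table, and MIF-AS1, TMPO-AS1 and AGAP2-AS1 change sign.

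The 3 antisense RNAs called lower were THAP9-AS1, PSMB8-AS1 and RNF219-AS1. THAP9-AS1 is named after THAP9, a gene derived from a transposase. Its called window (chromosome 4, 82894141 to 82895734, minus strand, in 2 blocks) had a log2 fold change of -1.05 (FDR = 5.62e-05) and a fold enrichment of 1.99 in the authors' deposited table of sgMETTL16-2 replicate 1. In replicate 2 of that guide, the authors' deposited table had a 60-base window inside it at -0.67 (FDR = 0.65), which was not enriched. The overlapping windows of sgMETTL16-1 were at -0.32 (FDR = 0.47) in replicate 1, and at -1.52 and -0.64 for shorter ones in replicate 2, by the authors' deposited tables. Each of these values was below 0, with windows of unequal length. No window of another gene on either strand shared bases with the called window, although in RefSeq it lies within the span of SEC31A, a coat protein gene on the same strand.

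PSMB8-AS1 faces PSMB8, which encodes a subunit of the immunoproteasome, in the major histocompatibility region. The called window (chromosome 6, 32845811 to 32846500, plus strand) ends at the 3′ end of PSMB8-AS1 in RefSeq and had a log2 fold change of -0.79 (FDR = 0.00776) and a fold enrichment of 2.51 in the authors' deposited table of sgMETTL16-2 replicate 1. In the authors' deposited table of sgMETTL16-1 replicate 1, the matching window was at -0.48 (FDR = 0.179), the lowest FDR of any antisense window there. In both replicate 2 tables the authors deposited, the region was split into 2 windows, an enriched one at -0.34 for sgMETTL16-1 and -0.27 for sgMETTL16-2, and a 3′ one that was not enriched at 0.41 and 0.31. The enriched parts were below 0 in all 4 tables, and the 3′ parts above it. TAP1, which encodes a peptide transporter of antigen presentation, lies across this region on the minus strand. It had no window over the called one, and in the replicate 2 tables the authors deposited, TAP1 windows sharing 94 and 100 bases were at -0.03 and -0.32.

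RNF219-AS1, now OBI1-AS1, faces RNF219 (OBI1), which encodes a ubiquitin ligase that acts at replication origins. Its called window (chromosome 13, 78616281 to 78617116, plus strand) was at -0.83 (FDR = 0.0288) with a fold enrichment of 1.97 in the authors' deposited table of sgMETTL16-2 replicate 1. The RNF219 window on the minus strand covered 0.97 of it and was at -0.75 (FDR = 0.0676), not called, in the same deposited table of the authors. Matching windows of sgMETTL16-1 were at -0.47 and -0.57 in the authors' deposited tables, neither called, and a window upstream that shares fewer bases was at 0.22 in replicate 1. In replicate 2 of sgMETTL16-2 the region was split into windows at 0.29, -0.90 and -0.72, all not called in the authors' deposited table. The antisense window and the coding window thus shared nearly all bases and nearly the same value, on the 2 sides of the threshold. Whether the deposited p is 1-sided is not stated. If it is, doubling it to a 2-sided p gave RNF219-AS1 an FDR of 0.0783, and the call was lost.

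The 4 antisense RNAs called higher were AGAP2-AS1, TMPO-AS1, CEBPB-AS1 and MIF-AS1, and each shared bases with a window of the gene it faces. AGAP2 encodes a GTPase-activating protein. The called AGAP2-AS1 window (chromosome 12, 57726240 to 57727061, plus strand) begins at the start site shown above and had a log2 fold change of 1.59 (FDR = 0.00891) and a fold enrichment of 3.34 in the authors' deposited table of sgMETTL16-2 replicate 1. An AGAP2 window that shares 139 bases was called higher as well, at 1.02 (FDR = 0.000398), in that deposited table of the authors. The matching AGAP2-AS1 windows were at 0.74 and 0.50 for sgMETTL16-1 and at -0.29 for replicate 2 of sgMETTL16-2 in the authors' deposited tables, none called. So the sign turned between the replicates of the guide that gave the call.

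TMPO encodes lamina-associated polypeptide 2, a protein of the nuclear lamina. TMPO-AS1 starts at 98516226 on the minus strand and TMPO at 98515573 on the plus strand in RefSeq, so their first parts overlap. The called TMPO-AS1 window (chromosome 12, 98515030 to 98516196) was at 0.56 (FDR = 0.00794) and the TMPO window over 481 of its bases was called at 0.52 (FDR = 0.00398) in the authors' deposited table of sgMETTL16-2 replicate 1. Overlapping windows of TMPO-AS1 in the other tables the authors deposited were at 0.06 and 0.34 for sgMETTL16-1 and at -0.02 for sgMETTL16-2 replicate 2, and those of TMPO at 0.06, 0.32 and 0.02. Both genes were thus highest in the table of the call and close to 0 in the other replicate of that guide.

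CEBPB encodes a transcription factor of myeloid cells. CEBPB-AS1 was the antisense RNA with the lowest FDR in any table. Its called window (chromosome 20, 50190252 to 50192010, minus strand, 3 blocks) was at 0.65 (FDR = 3.02e-06) in the authors' deposited table of sgMETTL16-2 replicate 1, with a fold enrichment of 1.58. The CEBPB window over 502 of its bases was called at 0.49 (FDR = 1.23e-08) with a fold enrichment of 2.13 there, by the authors' deposited table. Matching CEBPB-AS1 windows were at 0.30 and 0.12 for sgMETTL16-1 and at 0.24 for sgMETTL16-2 replicate 2 in the authors' deposited tables, and the CEBPB windows at 0.25, 0.08 and 0.17. CEBPB-AS1 was above 0 in all 4 tables and passed the threshold in 1.

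MIF encodes macrophage migration inhibitory factor, a cytokine. The called MIF-AS1 window (chromosome 22, 23895042 to 23895220, minus strand) was at 0.42 (FDR = 0.0055) in the authors' deposited table of sgMETTL16-2 replicate 1, where the MIF window over 0.98 of it was at 0.27 (FDR = 0.114) and not called. For the other tables the authors deposited -0.02, -0.20 and -0.12 for MIF-AS1, and -0.07, -0.12 and -0.11 for MIF. The call was thus the only value of MIF-AS1 above 0 among these 4 windows.

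The kit that made the libraries keeps strand, but whether the authors' peak calling used strand is not stated, so it was measured how antisense windows compare with the windows they overlap. In the tables the authors deposited, 914 of 5531 antisense windows (16.5%) shared at least 1 base with a window of a gene on the opposite strand, and 88 of the 207 enriched ones (42.5%) did. Per table these were 15 of 40 and 25 of 54 enriched windows for sgMETTL16-1, and 20 of 52 and 28 of 61 for sgMETTL16-2, in the authors' deposited tables. Of the 88, 72 faced the gene in their name, and for 70 the opposite window was enriched too. Windows of another gene on the same strand were rare, at 3 to 4 antisense windows per table, and 0 enriched ones.

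The more bases an antisense window shared with the opposite one, the closer were their values. Where both shared at least 0.95 of their bases (91 windows), the authors' deposited tables gave the same log2 fold change to 2 decimals in 56, the same fold enrichment to 3 digits in 62, and a median absolute difference in log2 fold change of 0.00. With 0.5 to 0.95 shared (368 windows), the median absolute difference in the authors' deposited tables was 0.16, and 46 were equal. With less than 0.5 shared (455 windows), it was 0.47 and 13 were equal in the authors' deposited tables. Spearman's rho across window pairs, a description over pairs that share libraries and bases, was 0.963, 0.787 and 0.406 in the 3 classes, by the authors' deposited tables. Thus for windows that lie on each other the deposited values do not separate the antisense RNA from the gene it faces.

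**Figure D4:**
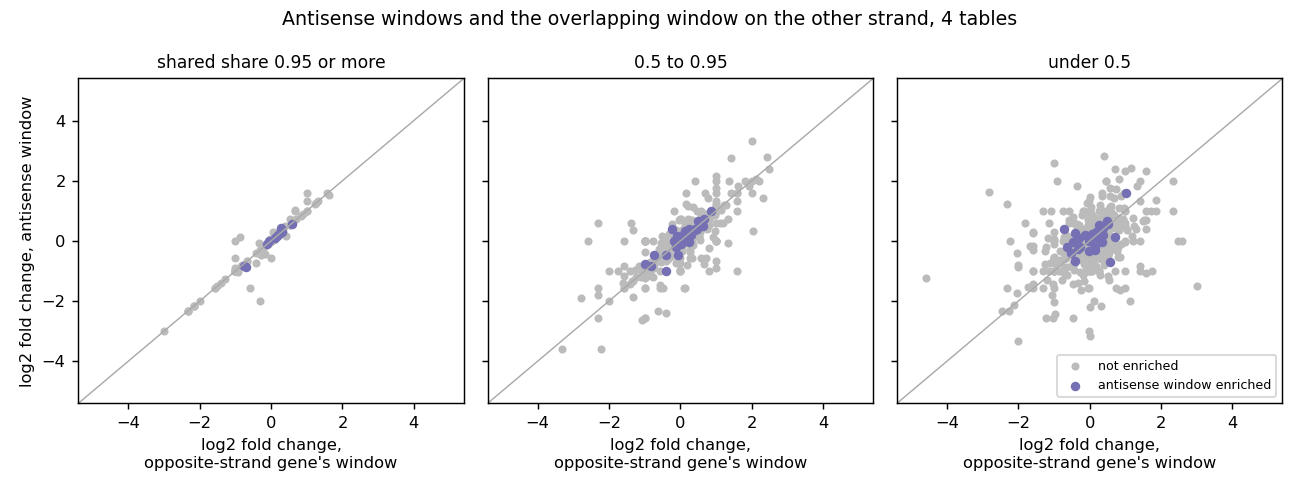
Log2 fold change (knockout over sgNS) of 914 antisense windows (vertical) against that of the overlapping window on the opposite strand (horizontal), pooled over the 4 deposited tables, in 3 panels by the share of bases in common, with the line of equal values. At 0.95 or more the points lie on or close to the line, with 56 of 91 equal (median absolute difference 0.00), and below 0.5 they spread (median absolute difference 0.47).

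Among the 94 antisense windows, of 85 genes, that could be matched across all 4 deposited tables (same name and strand, sharing at least 0.5 of the bases of each), 6 were enriched in every table: those of SNRK-AS1, NCBP2-AS2, SEMA3F-AS1, PCNA-AS1, RUSC1-AS1 and MIF-AS1. Their mean fold enrichments in the authors' deposited tables were 2.4, 2.3, 1.53, 1.49, 1.38 and 1.3. All but NCBP2-AS2 overlapped a window on the opposite strand. SNRK-AS1 (chromosome 3, 43347638 to 43348626) and SNRK were listed with the same pair of values in each of the authors' deposited tables: log2 fold changes of 0.16 and 0.31 for sgMETTL16-1 and 0.23 and 0.11 for sgMETTL16-2, and fold enrichments of 2.29, 2.58, 2.35 and 2.39. RUSC1-AS1 overlapped FDPS, which encodes a farnesyl diphosphate synthase, and its log2 fold changes were -0.12, 0.15, 0.02 and 0.23 in the authors' deposited tables, against 0.02, 0.13, 0.17 and 0.28 for FDPS. SEMA3F-AS1 overlapped RBM5, a splicing regulator, and was at 0.03, -0.08, 0.21 and -0.46 in the authors' deposited tables. NCBP2-AS2 (chromosome 3, 196942800 to 196943629), which had no such overlap, was at -0.22 and 0.06 for sgMETTL16-1 and -0.08 and -0.22 for sgMETTL16-2 in the authors' deposited tables, with fold enrichments of 2.39, 2.54, 2.09 and 2.2. Its enrichment was steady and its log2 fold change stayed close to 0.

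PCNA-AS1 lies within PCNA, which encodes the sliding clamp of DNA replication, and OIP5-AS1, known as Cyrano, pairs with the microRNA miR-7. In all 4 of the authors' deposited tables, PCNA-AS1 has an enriched window from its start site. In each of them OIP5-AS1 has one that begins just after its start site and covers 37 of the 50 transcribed bases. Their sequences are shown for that reason, as above with capitals for the bases in the enriched window of sgMETTL16-2 replicate 1. PCNA-AS1 is chr20:5119336-5119635 and OIP5-AS1 is chr15:41283740-41284039, both on the plus strand in RefSeq GRCh38.p14, and neither has GGAC in the 50 transcribed bases.
PCNA-AS1: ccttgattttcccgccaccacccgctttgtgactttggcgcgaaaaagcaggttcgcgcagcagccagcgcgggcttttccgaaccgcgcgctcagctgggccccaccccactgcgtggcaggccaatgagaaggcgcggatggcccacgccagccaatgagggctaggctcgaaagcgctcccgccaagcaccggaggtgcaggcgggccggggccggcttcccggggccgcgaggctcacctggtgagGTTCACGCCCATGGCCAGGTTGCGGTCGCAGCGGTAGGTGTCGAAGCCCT
OIP5-AS1: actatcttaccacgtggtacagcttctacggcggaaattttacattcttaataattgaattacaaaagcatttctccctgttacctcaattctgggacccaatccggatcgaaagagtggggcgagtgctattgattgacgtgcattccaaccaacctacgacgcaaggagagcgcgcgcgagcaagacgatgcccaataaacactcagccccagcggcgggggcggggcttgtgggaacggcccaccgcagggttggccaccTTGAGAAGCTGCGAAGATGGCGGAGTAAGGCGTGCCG

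The PCNA-AS1 window was at -0.00 and 0.08 for sgMETTL16-1 and at 0.09 and 0.31 for sgMETTL16-2 in the authors' deposited tables, with a lowest FDR of 0.324. The PCNA windows over it were at -0.13, 0.09, -0.04 and 0.25 in the authors' deposited tables. OIP5-AS1 had no enriched window that overlapped another gene's window. Its window from 41284003 was at -0.23 (sgMETTL16-1 replicate 1) and -0.20 (sgMETTL16-2 replicate 1), but at 0.23 and 0.42 in the replicate 2 tables, with a lowest FDR of 0.605 in the authors' deposited tables. The sign thus followed the replicate number and not the guide, and the windows were longer in replicate 1 (800 bases) than in replicate 2 (326 and 149 bases).

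Windows matched across the 4 tables and enriched in at least 1 numbered 29, on 28 antisense RNAs. Of these, 5 were below 0 and 2 above 0 in each of the authors' deposited tables, and 15 overlapped a window on the opposite strand in at least 1 table. Of all 94 matched windows, 22 were below 0 and 4 above 0 in each table, and 0 were called in all 4. Only 5 of the 22 were enriched in at least 1 table, and the same count was not made over all windows. Between the 2 tables of a guide, matched antisense windows with nonzero values shared a sign in 52.1% (sgMETTL16-1) and 55.4% (sgMETTL16-2) of pairs. Over all matched windows, the shares were 52.6% and 59.4%. The lowest mean log2 fold changes among the 29 windows enriched in at least 1 table were those of URB1-AS1, FGD5-AS1, OTUD6B-AS1, BAIAP2-AS1 and C1RL-AS1, at -0.79, -0.61, -0.41, -0.39 and -0.35 in the authors' deposited tables. URB1-AS1, named after a ribosome biogenesis gene, was at -1.32 and -0.37 for sgMETTL16-1 and -0.22 and -1.25 for sgMETTL16-2 in the authors' deposited tables, with a mean fold enrichment of 5.4. FGD5-AS1, which in RefSeq points towards FGD5 without overlapping it, was at -0.57 and -0.79 for sgMETTL16-1 and -0.91 and -0.18 for sgMETTL16-2 in this window (chromosome 3, 14944426 to 14944636) of the authors' deposited tables. In its windows with the lowest FDR of IP over input, further towards the 5′ end, FGD5-AS1 was at -0.07 and -0.09 for sgMETTL16-1. For sgMETTL16-2 these windows were at -0.31 and -0.25 in the authors' deposited tables. C1RL-AS1 was at -1.64 and -0.82 in the replicate 1 tables and at 0.58 and 0.47 in the replicate 2 tables that the authors deposited. None of these windows was called.

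The highest mean log2 fold changes among the 29 windows enriched in at least 1 table were those of PSMD5-AS1, A1BG-AS1, CEBPB-AS1, FOXD2-AS1 and SH3RF3-AS1, at 0.88, 0.33, 0.33, 0.31 and 0.31 in the authors' deposited tables. PSMD5-AS1 ranged over -0.92 and 3.29 for sgMETTL16-1 and 0.29 and 0.88 for sgMETTL16-2 in the authors' deposited tables, so 1 table set its mean. The A1BG-AS1 window overlapped ZNF497, a zinc finger gene, in all 4 tables, and was at -0.23, 0.72, 0.63 and 0.22 in the authors' deposited tables. FOXD2-AS1 was at 0.37 and -0.27 for sgMETTL16-1 and 0.64 and 0.48 for sgMETTL16-2 in the authors' deposited tables. Apart from the CEBPB-AS1 window above, none of these was called or kept 1 sign in all 4 tables.

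**Figure D5:**
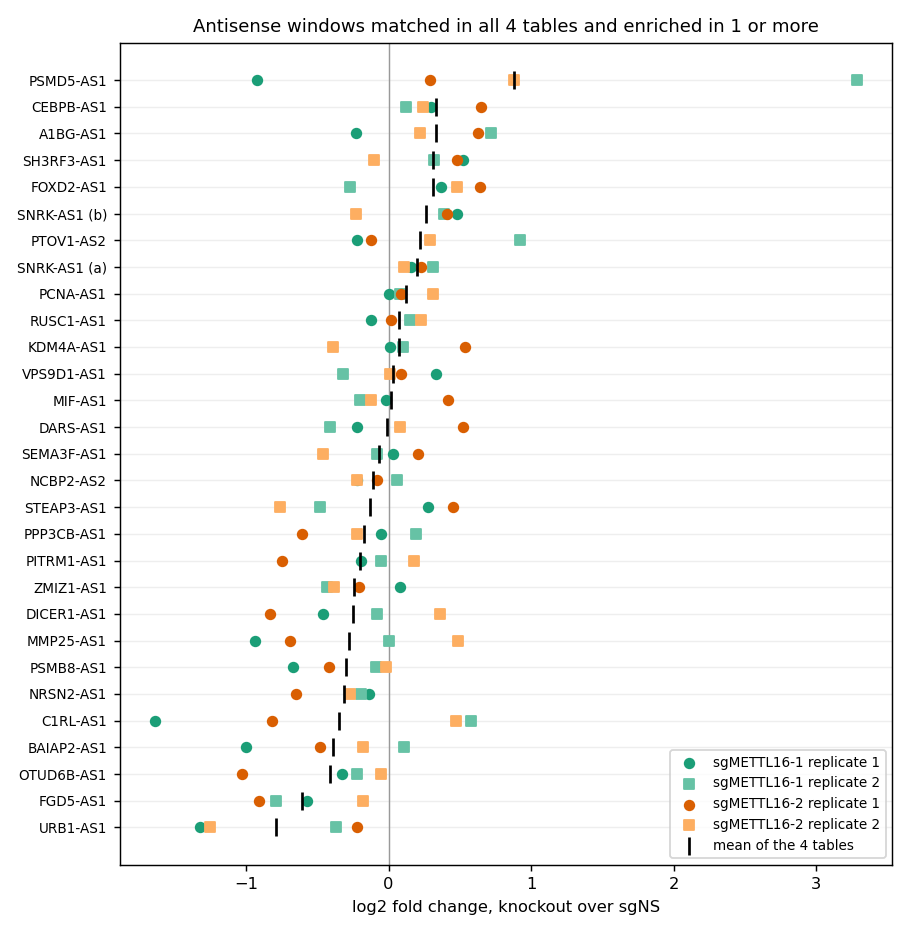
Log2 fold change (knockout over sgNS) of the 29 antisense windows matched across all 4 deposited tables and enriched in at least 1, with 1 point per table, a black bar for the mean of the 4 and windows ordered by that mean. URB1-AS1 is lowest with a mean of -0.79 and PSMD5-AS1 highest with a mean of 0.88. SNRK-AS1 has 2 windows, (a) and (b) in the order of their means.

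Of 33 antisense RNAs listed because they have been studied elsewhere, 28 had a window, 11 were enriched in at least 1 of the authors' deposited tables and 8 in a table of each guide: HOXA-AS3, MAPKAPK5-AS1, FOXP4-AS1, OIP5-AS1, FGD5-AS1, TMPO-AS1, PSMB8-AS1 and CEBPB-AS1. Of all 553 antisense RNAs, 85 were enriched in at least 1 table. The list was chosen with earlier results of these data known, so its share is no result about studied RNAs. HOXA-AS3 lies in the cluster of HOXA homeobox genes that are active in many acute myeloid leukaemias. It was enriched in the replicate 2 tables alone, where the authors' deposited log2 fold changes were -0.86 for sgMETTL16-1 and -0.83 for sgMETTL16-2, with FDRs of 0.658 and 0.65 and fold enrichments of 4.65 and 7.44. The HOXA7 windows on the other strand, which shared 560 and 850 bases, were at -0.69 and -0.82 in the authors' deposited tables. MAPKAPK5-AS1 was at -0.16 for sgMETTL16-1 replicate 1 and at -0.30 and 0.48 for sgMETTL16-2 in the authors' deposited tables, none called. FOXP4-AS1 was at -0.09 and 0.75 for sgMETTL16-1 and 0.19 for sgMETTL16-2 replicate 2 in its enriched windows of the authors' deposited tables, and its 0.75 had the lowest FDR among antisense windows of that table, 0.158.

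The antisense RNAs with most windows over the 4 tables were IQCH-AS1 with 47, TTC28-AS1 with 46 and MBNL1-AS1 with 42. None of these windows was enriched in the authors' deposited tables, although their highest fold enrichments were 4.45 to 9.12 for IQCH-AS1, TTC28-AS1 and MBNL1-AS1. The IQCH-AS1 window with the lowest unadjusted p (0.00417) was at -1.31 (FDR = 0.299) in the authors' deposited table of sgMETTL16-1 replicate 1. In these 3, many windows went with a high fold and no support in the IP test. Others with many windows were enriched: C1RL-AS1 (41 windows) in 2 tables, OTUD6B-AS1 (40) in 1 and HOXA-AS3 (35) in 2.

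The genes that antisense RNAs are named after were read in the same tables. Of the antisense RNAs listed in the authors' deposited tables, 7.53% and 11% had an enriched window for sgMETTL16-1 and 9.73% and 11.5% for sgMETTL16-2. Among their sense partner genes with windows (422, 398, 424 and 414), the shares in the authors' deposited tables were 34.6%, 42%, 38.9% and 42.8%. A gene counts here if any window is enriched, and partners had more windows per gene (2819, 2474, 2792 and 2476 in all). Per window, 8.51%, 12.2%, 9.74% and 12.9% of partner windows were enriched, close to the 8.1%, 11.9%, 10.2% and 12.3% of all windows. Over all genes, 4626 of 15212, 5339 of 14872, 5210 of 15110 and 5351 of 14947 had an enriched window. Where antisense RNAs had 0, 0, 7 and 0 called windows, the partners had 13, 8, 33 and 3 called lower and 7, 22, 38 and 19 called higher in the authors' deposited tables. Those made up 0.709%, 1.21%, 2.54% and 0.889% of the partners' windows, against the 0.355%, 0.749%, 1.84% and 0.734% of all windows given above. In all, 88 partner genes had a call in at least 1 of the authors' deposited tables and 26 in at least 2. Of the 88, the antisense RNAs of 4 (AGAP2, CEBPB, RNF219 and TMPO) were called as well, and those of 24 were enriched in at least 1 table. Over all 553 antisense RNAs, 7 were called and 85 were enriched in at least 1 table. For AGAP2, CEBPB and TMPO, the called windows of both strands shared 139, 502 and 481 bases. These were 0.19, 0.32 and 0.45 of the longer window of each pair. Whether the paired calls are separate results was not tested. RNF219 was called in another window than the one that RNF219-AS1 overlaps, at -1.66 (FDR = 0.0372) in the authors' deposited table of sgMETTL16-2 replicate 1.

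Only CEBPA and TPT1 among the partner genes were called in all 4 of the authors' deposited tables. CEBPA-AS1 faces away from CEBPA, the transcription factor gene of granulocyte and monocyte development. CEBPA-AS1 had 6 to 8 windows per table and was enriched in 1, at 1.88 (FDR = 0.659) in the authors' deposited table of sgMETTL16-2 replicate 1. CEBPA itself was called higher at 0.24 and 0.35 for sgMETTL16-1 and 0.49 and 0.32 for sgMETTL16-2 in the authors' deposited tables. TPT1-AS1 had 1 to 3 windows per table and 0 enriched ones, and its lowest FDR of the difference was 0.601 in the authors' deposited tables. TPT1, which encodes a tumour protein under translational control, was called lower in each of the authors' deposited tables, between -0.63 and -0.23. FOXP4, a forkhead transcription factor gene, had 12 windows called higher in 3 of the authors' deposited tables, between 0.12 and 0.44, while FOXP4-AS1 had 0 calls. Whether antisense RNAs and the genes they face differ in their response to the knockout was not tested.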

How the data were processed

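m6A immunoprecipitates and inputs of NOMO-1 cells were compared by the authors, and 4 tables of their own comparisons were used. The submitters' processing notes name STAR and GRCh38. The sources used here do not give the peak caller, its use of strand or the sgNS libraries behind each table. Per the file headers, the deposited columns are a fold enrichment of IP over input (a ratio), a log2 fold change of the difference, and log10 p-values and FDRs. The authors' deposited p and FDR columns, on a log10 scale, were entered as a score and turned back into p-values. No library totals were used, so depth and its effect on precision are unknown.

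Members were found by name, windows matched between tables at 0.5 of the bases of each over blocks, and opposite-strand windows taken by largest shared fraction, in Python 3.11.15 with pandas 2.3.3 and numpy 2.4.6. The result of a list of markers of other lineages is not reported here. No test was fitted, and calls are the authors' FDRs over each whole table. Deposited starts count from 0 and are given from 1. Matching and overlap were tested on simulated data. The members and lists were chosen with earlier results of these data known. Antisense RNAs were named where called, where enriched in all 4 tables, where matched with the 5 lowest or highest mean log2 fold changes, where most often listed (3), or where studied elsewhere and enriched with each guide, with the genes they face. The genes called in all 4 tables and PRKAG2-AS1, ST3GAL4-AS1 and FOXP4 were singled out after their values were seen. Alternatives were other thresholds, overlaps and member rules, 1 window per gene, a two-sided p and centring, of which centring on the enriched windows was added after seeing the data.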

Additional observations from a re-analysis of the deposited data

How the results depend on the processing

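Keeping only some windows, by fold enrichment or by opposite-strand overlap, could only lower the counts of calls. In the sgMETTL16-2 replicate 1 table, the antisense calls were 3 lower and 4 higher. Among windows with a fold enrichment of at least 2, 58.8% of antisense windows there, 1 lower and 1 higher call remained. Among windows free of opposite-strand overlap, which 228 of the 1381 antisense windows had, 2 lower and 0 higher remained. The share of all windows called was not counted in these subsets. RNF219-AS1 (-0.83) was no longer called at an FDR of 0.01. It was also lost with the deposited p doubled as if 1-sided, which is not stated (FDR = 0.0783). Counting names that end in -AS with no digit gave 1 lower call for sgMETTL16-1 replicate 2. Without replicate 2, the sgMETTL16-2 calls were 3 lower and 4 higher, so over both ways of leaving out a replicate the counts ran from 0 to 3 and from 0 to 4. In the order of the tables, the enriched share was 1.64%, 2.28%, 2.1% and 2.4% at an IP FDR of 0.01, and 7.53%, 11%, 9.73% and 11.5% with 1 window per gene. Without opposite-strand overlaps it was 2.03%, 2.67%, 2.78% and 2.87%. The median log2 fold change over enriched windows alone was -0.06, 0.11, 0.02 and 0.13. The cause of these shifts was not tested beyond the construction of each subset. No paired analysis was possible because the tables hold no value per library.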

Other observations

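The antisense RNAs of the HOXA cluster that the authors' deposited tables list with no digit after -AS lie outside the names described above. HOXA10-AS had a window called lower for sgMETTL16-1 replicate 2, at -0.56 (FDR = 0.0372, fold enrichment 1.27), and HOXA11-AS a window called higher for sgMETTL16-2 replicate 1, at 0.35 (FDR = 0.0398, fold enrichment 1.54), in the authors' deposited tables. They are 2 of 13 names of that form, with 113 windows over the 4 tables. The call for sgMETTL16-1 replicate 2 was 1 of 29 such windows, where 0.749% of all windows were called. That for sgMETTL16-2 replicate 1 was 1 of 25, where 1.84% of all windows were called. Single calls among so few windows give no result about these RNAs as a set.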
